A study of Mus musculus with 86 samples.

Results

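The interferon-stimulated genes described here are a list of 39 named mouse genes that interferons switch on, read in the brain of free-ranging wild mice. The genes were taken by symbol from a table of read counts for 35275 genes, in which 38 of the 39 were found. Gbp6 was not analysed here. All 38 passed the filter on low counts in each brain region. The list covers 9 roles in the response, from RNA-binding IFIT proteins to transcription factors and GTPases.

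The animals were wild-caught Mus musculus, house mice from a population living free in a barn. They were sampled from the tails of its distribution of social network size. By the study's account, large network sizes were less extreme in the males sampled than in the females. The labels give each animal as of high or low gregariousness, which the study calls large or small social network size, meaning many or few different partners met in nest boxes per day. Punches of frozen brain gave prefrontal cortex, hippocampus and hypothalamus of the same animals. No treatment, strain, genotype or age is given in the labels. The study's methods give estimated ages, lowest on average in males with small network size, without a significant difference by sex or network size. Prefrontal cortex and hippocampus were read in 7 females with large and 7 with small network size, and in 7 males with large and 8 with small network size. Hypothalamus libraries numbered 7 in each group, since the male with small network size numbered 18 had none. In all there were 86 libraries of 29 animals.

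Interferons are cytokines that cells release on sensing viral nucleic acid or other signs of infection. Type I interferons act on target genes through the interferon-stimulated response element in front of them, which a complex with STAT2 and IRF9 binds, and interferon gamma acts through gamma-activated sites. In the brain the response is carried by microglia, endothelial cells, astrocytes and neurons, and its genes include antiviral effectors, sensors that feed back on the pathway, and GTPases that attack intracellular parasites.

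The sequencing depth was 33711824 to 81865801 counted reads per library (median 44778419). The regional labels were set against summed levels of marker genes. In hypothalamus libraries 8 hypothalamic genes had 177 to 1607 CPM (normalized counts scaled to 1000000 per library). In the others they had at most 92.5 CPM. The 6 cortical genes had 608.1 to 960.6 CPM in prefrontal cortex libraries and at most 504.2 CPM in the others. The 6 hippocampal genes had 317.2 to 453.1 CPM in hippocampus and at most 312.1 CPM in prefrontal cortex libraries. They overlapped with hypothalamus libraries, which had 189.2 to 398.6 CPM. The study's methods give a lower RNA integrity for the hypothalamus library of animal 19, a female with large network size, whose mean level over the genes there (-0.47) was close to that in its prefrontal cortex (-0.49) and hippocampus (-0.46). One animal stood apart in the interferon-stimulated genes, the female with large network size numbered 2, and the counts, estimates and ranges that turned on it are also given without it. In these bulk samples, fewer cells of a type and less RNA per cell cannot be told apart.

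Promoters are shown for the genes that differed most between animals, because the transcription factors of the interferon response are known to bind in front of their target genes. RefSeq sequences on GRCm38.p6 from 250 bases before to 50 bases after the start were held for 29 of the 39 genes. Oas2, Usp18, Zbp1, Mx1, Mx2, Gbp6, Iigp1, Ifi27, Rtp4 and Parp14 had no entry. The core of the response element was searched as GAAANNGAAA and, on the other strand, TTTCNNTTTC, and the gamma-activated site as TTCNNNGAA, which reads the same on both strands. The core was present in 20 of the 29 genes (69.0%), against 1079 of 27025 genes of the table (3.99%). The gamma-activated letters were present in 8 of 29 (27.6%), against 9.55% of all genes. A match is a description of letters and not a measured site. The 250 bases before the start are printed 5′ to 3′ on the gene's strand, with each match of the core in capitals, for 6 genes with a match and for 2 without.
Ifit3, an RNA-binding protein of the IFIT family, chr19:34583279-34583528, plus strand: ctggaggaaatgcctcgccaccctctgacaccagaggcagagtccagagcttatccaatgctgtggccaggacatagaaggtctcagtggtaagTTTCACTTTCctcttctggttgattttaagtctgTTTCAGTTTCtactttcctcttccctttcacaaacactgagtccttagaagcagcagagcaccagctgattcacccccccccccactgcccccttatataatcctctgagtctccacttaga
Gbp3, a guanylate-binding protein, chr3:142559794-142560043, plus strand: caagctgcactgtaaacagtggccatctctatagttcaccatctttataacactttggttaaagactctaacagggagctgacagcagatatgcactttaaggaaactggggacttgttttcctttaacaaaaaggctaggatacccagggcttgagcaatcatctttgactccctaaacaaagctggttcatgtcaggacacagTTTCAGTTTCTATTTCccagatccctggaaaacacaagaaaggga
Tgtp1, an immunity-related GTPase, chr11:48992247-48992496, minus strand: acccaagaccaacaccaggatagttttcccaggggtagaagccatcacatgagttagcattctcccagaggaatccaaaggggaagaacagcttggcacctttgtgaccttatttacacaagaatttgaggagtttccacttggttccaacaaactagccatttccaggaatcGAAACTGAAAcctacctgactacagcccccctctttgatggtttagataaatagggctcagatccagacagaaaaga
Irgm2, an immunity-related GTPase, chr11:58214727-58214976, plus strand: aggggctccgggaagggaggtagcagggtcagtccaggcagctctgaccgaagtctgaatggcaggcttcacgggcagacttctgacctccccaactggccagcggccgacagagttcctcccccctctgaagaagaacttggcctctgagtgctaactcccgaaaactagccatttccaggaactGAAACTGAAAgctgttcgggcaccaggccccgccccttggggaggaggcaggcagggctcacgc
Gbp2, a guanylate-binding protein, chr3:142620413-142620662, plus strand: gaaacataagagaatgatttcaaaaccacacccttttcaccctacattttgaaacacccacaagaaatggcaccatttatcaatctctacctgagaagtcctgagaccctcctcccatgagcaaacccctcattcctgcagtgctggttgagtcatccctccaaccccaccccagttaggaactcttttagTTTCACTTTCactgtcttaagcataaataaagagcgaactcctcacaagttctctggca
Gbp7, a guanylate-binding protein, chr3:142530086-142530335, plus strand: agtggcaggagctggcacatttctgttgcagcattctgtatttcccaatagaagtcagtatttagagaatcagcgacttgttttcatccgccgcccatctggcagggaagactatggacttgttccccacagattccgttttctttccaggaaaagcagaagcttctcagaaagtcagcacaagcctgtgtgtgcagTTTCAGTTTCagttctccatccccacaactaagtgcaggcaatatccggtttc
Ifi44, an interferon-induced cytoplasmic protein, chr3:151749911-151750160, minus strand: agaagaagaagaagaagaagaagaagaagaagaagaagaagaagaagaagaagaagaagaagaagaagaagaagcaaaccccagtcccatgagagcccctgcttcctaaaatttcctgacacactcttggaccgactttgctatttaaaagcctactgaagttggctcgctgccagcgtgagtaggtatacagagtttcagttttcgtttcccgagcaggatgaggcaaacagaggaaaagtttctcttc
Xaf1, a proapoptotic interferon-induced factor, chr11:72301379-72301628, plus strand: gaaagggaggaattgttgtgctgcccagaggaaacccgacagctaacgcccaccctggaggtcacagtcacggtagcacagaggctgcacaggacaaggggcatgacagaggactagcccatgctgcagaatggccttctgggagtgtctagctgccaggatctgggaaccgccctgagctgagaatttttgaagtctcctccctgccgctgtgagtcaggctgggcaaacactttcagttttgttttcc
In Ifit3 the matches began 156 and 122 bases before the start, and in Gbp3 a pair of overlapping matches began at 45 and 39 bases. The single matches of Tgtp1, Irgm2, Gbp2 and Gbp7 began 77, 64, 59 and 53 bases before it. Tgtp1 and Irgm2 also shared an identical run of 20 bases just before the match, aaactagccatttccaggaa. Ifi44 and Xaf1 had no match in this window.

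Levels differed widely among the genes. Per length of transcript, as TPM (counts divided by exon length and scaled to 1000000 per library) averaged over all libraries, the most abundant in its role was Ifi27 at 79.9 among the other induced genes, a small membrane protein. Ifit2, an IFIT protein that binds viral RNA, had 35.8 TPM, and Cmpk2, a mitochondrial nucleotide kinase beside Rsad2, had 35.5 TPM. The transcription factor Stat2 followed with 20.5 TPM, the guanylate-binding protein Gbp2 with 17.9 TPM and the immunity-related GTPase Igtp with 15.2 TPM. Isg15, the ubiquitin-like modifier, had 10.5 TPM. Eif2ak2, the kinase that halts translation on double-stranded RNA, had 6.55 TPM, and Oasl2 of the 2′-5′ oligoadenylate synthetase (OAS) family 3.86 TPM. At the other end was Oas3 with 0.228 TPM, which had a single read in one hippocampus library, so that its values are the least precise of the list.

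The genes varied between animals more than most genes did. Their median standard deviation of log2 CPM over animals was 0.556 in the prefrontal cortex, 0.592 in the hippocampus and 0.457 in the hypothalamus. Over all genes tested it was 0.206, 0.183 and 0.197. Of the 38, 36, 37 and 34 lay above the median of all genes in the 3 regions, and 18, 22 and 14 lay among the 10% most variable genes. Iigp1, an immunity-related GTPase that disrupts the vacuole of intracellular parasites, ran from 0.317 CPM in the lowest animal through a median of 4.65 to 17 CPM in the highest in the prefrontal cortex. Cmpk2 ran only from 35.8 through 39.1 to 45.3 CPM in the same libraries.

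The difference between animals was shared by the regions. A model with region and animal was fitted to all libraries with edgeR, and its quasi-likelihood F test of all animal terms, with Benjamini-Hochberg adjustment over all 18769 genes, called all 38 genes, beside 65.4% of all genes. The F value had a median of 11.4 over the 38 genes, with a range of 2.0 to 57.1, and of 2.19 over all genes. Without animal 2, 36 of 38 were called beside 63.8% of all genes, and the median F was 7.89. The 2 lost genes were Ifih1, which encodes the RNA sensor MDA5 (adjusted p = 0.0847), and Cmpk2 (adjusted p = 0.0906).

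The smallest p in this edgeR test belonged to genes of several roles. They were Ifit3 (F = 57.1, adjusted p = 1.99e-31), Mx2 (F = 54.7, adjusted p = 6.045e-31), Gbp3 (F = 44.6, adjusted p = 1.472e-28) and Ifi44 (F = 31.1, adjusted p = 2.344e-24). Iigp1 (F = 30.8, adjusted p = 2.968e-24) and Tgtp1 (F = 25.9, adjusted p = 2.854e-22) followed. The largest p belonged to Lgals3bp, a secreted glycoprotein (F = 3.86, adjusted p = 2.908e-05), Ifih1 (F = 3.72, adjusted p = 4.644e-05) and Cmpk2 (F = 2.0, adjusted p = 0.0219).

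**Figure D1:**
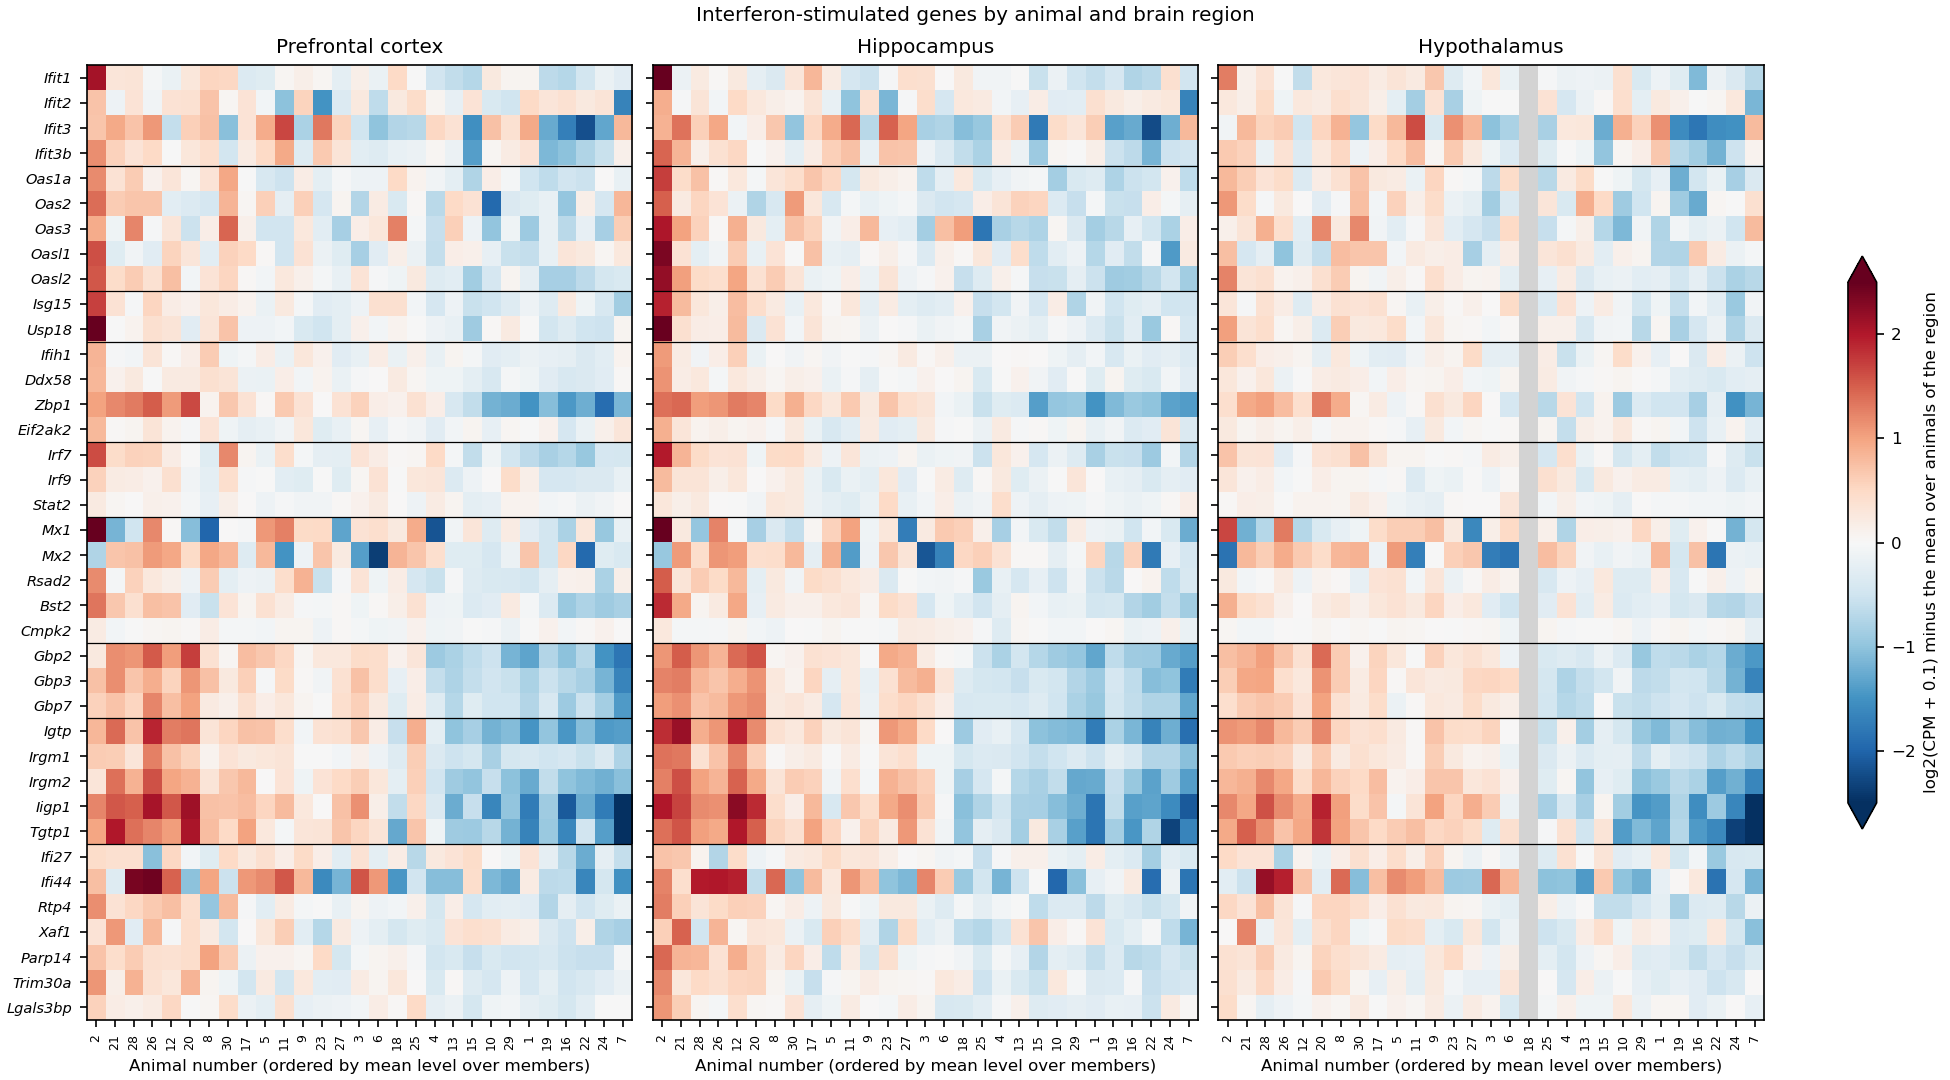
Level of each of the 38 genes (rows, grouped by role) in each animal (columns, in the same order in all 3 panels, by the mean level over the genes), as log2(CPM + 0.1) minus the mean over animals of the region, with colours saturating at the ends of the bar and animal 18 grey where it had no library. Columns keep their colour from panel to panel, with animal 2 high in most rows and animal 7 low in the guanylate-binding proteins and immunity-related GTPases, while the Mx2, Ifit3, Ifit2 and Ifi44 rows break the order of the columns.

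As one number per library, the mean over the 38 genes of log2 CPM minus the mean of the region ran from -0.63 to 1.03 in the prefrontal cortex, a 3.17-fold range. In the hippocampus it ran from -0.74 to 1.42 (4.46-fold) and in the hypothalamus from -0.65 to 0.53 (2.26-fold). Without animal 2 the ranges were 2.48-fold, 2.89-fold and 2.21-fold. The standard deviation over animals was 0.43 (n = 29), 0.49 (n = 29) and 0.35 (n = 28). The animal with the highest level was animal 2 in all 3 regions, and it lay above the mean in 37, 37 and 35 of the 38 genes. Of the 28 animals with all regions, 23 had the same sign in all 3, of which 12 lay above and 11 below the mean.

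After animal 2, the highest means over the regions belonged to animals of each sex and network size. The female with small network size numbered 21 had 0.47, 0.79 and 0.39 in prefrontal cortex, hippocampus and hypothalamus. The male with large network size numbered 28 had 0.55, 0.45 and 0.50. The lowest were the male with small network size numbered 7, with -0.57, -0.74 and -0.59, and the males with large network size numbered 24, with -0.61, -0.53 and -0.65, and 22, with -0.58, -0.70 and -0.51. Animal 12, a male with small network size, departed from this agreement, with 0.48 and 0.76 in prefrontal cortex and hippocampus but 0.08 in the hypothalamus.

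**Figure D2:**
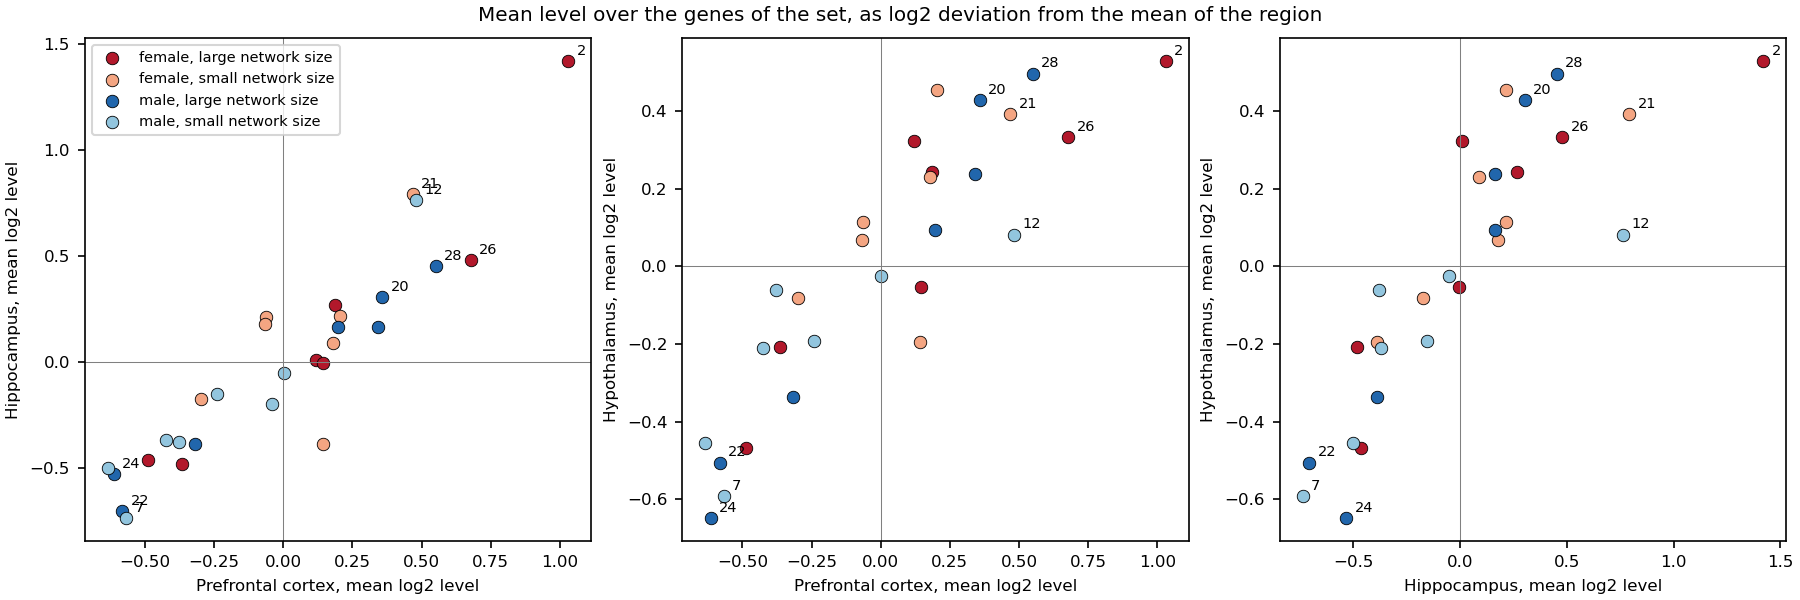
Mean log2 level over the 38 genes, as the deviation from the mean of the region, for one region against another, one point per animal coloured by sex and network size, with animal numbers beside 9 of the points. The points run from animals 7, 22 and 24 at the lower left to animal 2 at the upper right in all 3 panels, and points of the 4 groups are intermixed.

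Across animals the mean level in the prefrontal cortex correlated with that in the hippocampus with Pearson's r of 0.921 and Spearman's rho of 0.910 (n = 29 animals), given as a description. Prefrontal cortex and hypothalamus gave 0.887 and 0.904, and hippocampus and hypothalamus 0.852 and 0.920 (n = 28 animals). Without animal 2, r was 0.901, 0.884 and 0.864. Gene by gene, the median r over the 38 genes was 0.813, 0.769 and 0.740, against 0.310, 0.323 and 0.342 over all genes. An r above 0.8 was found for 21, 17 and 17 of the 38 genes, beside 3.76%, 3.42% and 3.83% of all genes. The 3 regions of an animal share the animal and its handling, so a correlation between them does not separate one shared influence from another.

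There were 114 correlations of single genes (38 genes in 3 pairs of regions). Mx2, Ifit3 and Ifit2, whose values fell into separate ranges, were set aside after the values were seen. Among the other genes, the correlations of Gbp3 had the highest mean. Its r was 0.942, 0.951 and 0.936, with rho of 0.924, 0.944 and 0.927, and each permutation p was 1e-05, the smallest that 100000 permutations can give. Without the 2 animals farthest from the median, r was still 0.922, 0.930 and 0.913. Igtp had r of 0.901, 0.869 and 0.914 (permutation p = 1e-05 each), with rho of 0.896, 0.817 and 0.927, and 0.889, 0.846 and 0.900 without the 2 animals. The agreement of Ifit1 varied with the pair of regions. It had r = 0.675 (permutation p = 0.00518) and rho = 0.255 (permutation p = 0.181) between prefrontal cortex and hippocampus, and r was 0.145 without the 2 animals. Between prefrontal cortex and hypothalamus it had r = 0.742 (permutation p = 3e-05) and rho = 0.645 (permutation p = 0.00023), and 0.622 without the 2 animals. Cmpk2 was low, with r = 0.234 (permutation p = 0.224) and rho = 0.177 (permutation p = 0.358) between prefrontal cortex and hippocampus, and 0.190 without the 2 animals. The p-values of these correlations are not adjusted.

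Within a region the genes mostly rose and fell together across animals. Of the 703 pairs among the 38 genes, 680 had an r above 0 in the prefrontal cortex, 690 in the hippocampus and 646 in the hypothalamus, with medians of 0.404, 0.547 and 0.345. Without animal 2 the counts were 637, 676 and 621. The means of the antiviral families and those of the GTPase families were nevertheless led by different animals. Animal 2 had the highest level for 21 of the 38 genes in the prefrontal cortex, 25 in the hippocampus and 10 in the hypothalamus. It led the mean of the OAS family with 1.42, 2.05 and 0.85 above the mean of the region on the log2 scale. It also led that of Isg15 with its protease Usp18, by 2.14, 2.22 and 0.68. In the hypothalamus animal 8 led the IFIT proteins (0.54), animal 28 the nucleic acid sensors (0.42) and animal 26 the other antiviral effectors (0.54).

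Single genes showed the high values of animal 2. Its Usp18, the protease that removes ISG15 and restrains the receptor, had 9.21, 10.6 and 4.09 CPM in prefrontal cortex, hippocampus and hypothalamus, against medians over animals of 1.48, 1.74 and 1.997 CPM. Its Oasl2 had 14.4, 24.8 and 18.2 CPM, against medians of 4.70, 4.90 and 7.89 CPM. Bst2, the tetherin that holds budding virus at the membrane, had 13.97, 30.9 and 14.7 CPM in it, against medians of 5.33, 7.91 and 8.67 CPM. In these 3 genes it was the highest animal in each region. Isg15 (6.32 and 7.73 CPM) and Irf7 (8.11 and 11.2 CPM), the transcription factor that amplifies interferon production, were highest in it in prefrontal cortex and hippocampus only, against medians of 1.77 and 1.85 CPM and of 2.46 and 2.56 CPM. In the hypothalamus Isg15 was highest in animal 6 (2.87 CPM) and Irf7 in animal 30 (5.44 CPM). Usp18 and Irf7 each overlap a gene on the opposite strand, and reads of the pair may not be told apart. Stat2, part of the factor that carries the type I signal to the nucleus, spanned 27.03 to 37.6 CPM in the prefrontal cortex (median 32.4 CPM), with animal 2 highest. In the hippocampus animal 23 was highest (45.9 CPM, against 39.5 CPM in animal 2), and in the hypothalamus animal 6 (36.5 CPM, against 30.05 CPM).

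Other genes were led by other animals. Xaf1 was highest in animal 21 (14.9, 17.8 and 15.5 CPM) and lowest in animal 7 (3.88, 2.76 and 3.14 CPM) in all 3 regions, with medians of 7.01, 6.19 and 6.23 CPM. Ifi27 was lowest in animal 22 in each region, with 10.9, 18.7 and 14.98 CPM against medians of 29.1, 34.2 and 29.4 CPM. Zbp1, a sensor of Z-form nucleic acid that triggers cell death, was highest in animal 20 in the prefrontal cortex (2.95 CPM) and hypothalamus (2.99 CPM) and in animal 21 in the hippocampus (3.07 CPM). Its medians were 0.988, 1.21 and 1.29 CPM in prefrontal cortex, hypothalamus and hippocampus.

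The guanylate-binding proteins, which coat and break pathogen vacuoles, were led by animal 20 in the prefrontal cortex (1.28), animal 21 in the hippocampus (1.32) and animal 20 in the hypothalamus (1.19). The immunity-related GTPases, which act on the same vacuoles, were led by animals 26 (1.64), 12 (1.80) and 20 (1.30). Animal 2 had 1.59 for them in the hippocampus, and was the highest for Irgm1 there and in the hypothalamus. Animal 7 was the lowest for both families in all 3 regions, with -1.64, -1.49 and -1.25 for the guanylate-binding proteins and -2.0, -1.65 and -1.93 for the immunity-related GTPases. In that animal Gbp3 had 4.02, 3.71 and 3.96 CPM, against medians over animals of 13.1, 11.2 and 14.7 CPM. Its Iigp1 had 0.317, 1.18 and 0.672 CPM, against medians of 4.65, 5.27 and 5.31 CPM. Tgtp1 lay at 0.0732 CPM in its prefrontal cortex, the lowest of all animals, against a median of 1.45 CPM. Tgtp1 has a near-identical copy, Tgtp2, so its counts may be split between them, and Igtp and Irgm2 overlap on the same strand.

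Some genes kept their own order of animals in all regions without following the others. The mean r of Xaf1 between regions was 0.899, while its mean r with the other 37 genes was 0.28. For Ifi44 the values were 0.904 and 0.34. In contrast Oasl2 had 0.818 between regions and 0.61 with the other genes, Igtp 0.895 and 0.58, and Iigp1 0.920 and 0.57. Cmpk2 was low on both, with 0.338 and 0.19.

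**Figure D3:**
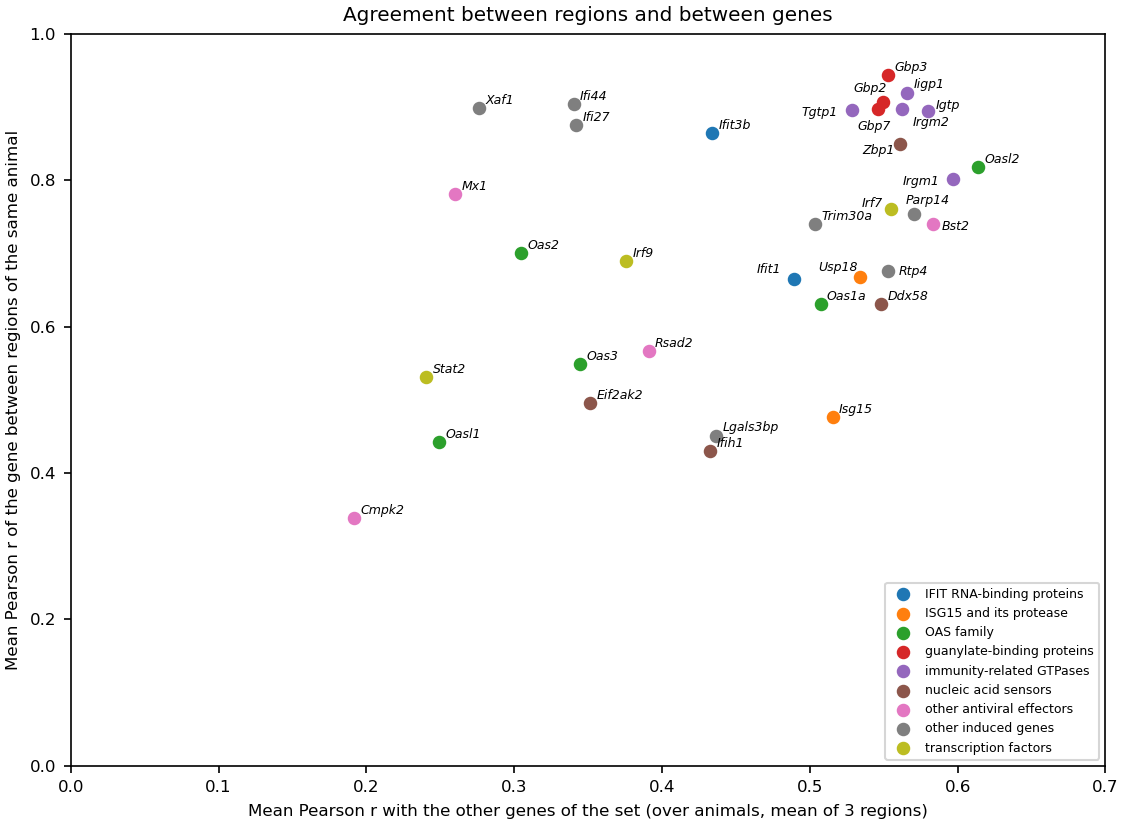
Mean Pearson's r of a gene with the other genes of the list across animals (x axis, mean of the 3 regions) against the mean Pearson's r of the gene between the regions of the same animals (y axis), one point per gene, coloured by role, without Mx2, Ifit3 and Ifit2, whose values fell into separate ranges. Xaf1 and Ifi44 lie at the upper left, the guanylate-binding proteins and most immunity-related GTPases at the upper right, and Cmpk2 at the lower left.

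Mx2, which lies at chr16:97535308-97560900 beside Mx1 and is annotated as a polymorphic pseudogene in GENCODE vM21, fell into 3 separate ranges. In the hypothalamus 5 animals lay between 1.43 and 1.59 CPM, 9 between 3.94 and 5.34 CPM and 14 between 7.42 and 11.4 CPM. The same 5, 9 and 14 animals lay in separate ranges in the other regions. They had 0.778 to 2.56, 3.17 to 4.04 and 5.14 to 9.34 CPM in the prefrontal cortex, and 1.07 to 2.56, 3.10 to 5.16 and 6.33 to 11.02 CPM in the hippocampus. The ranges were noticed after the values were seen and were not tested. The lowest range held animals 2, 3, 6, 11 and 22, so that animal 2, highest in 21 and 25 of the 38 genes in prefrontal cortex and hippocampus, was among the lowest in Mx2. All 7 females with small network size were in the highest range, with 2 of the 7 females with large network size. Among males it held 3 of 7 with large and 2 of 7 with small network size. Animal 18, a male with small network size, is not in these counts because it had no hypothalamus library. Its 8.04 CPM in the prefrontal cortex and 7.26 CPM in the hippocampus lay within the highest range of those regions. Within the ranges of 9 and 14 animals, r between regions was 0.596 to 0.750 and 0.531 to 0.693.

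Ifit3, at chr19:34583531-34588731, fell into 2 ranges. In the prefrontal cortex 12 animals had 0.801 to 2.86 CPM and 17 had 5.14 to 13.1 CPM. The same 12 were at 0.956 to 4.66 and the same 17 at 5.47 to 13.7 CPM in the hippocampus. In the hypothalamus 11 of the 12 had libraries and lay at 1.71 to 4.74 CPM, and the 17 lay at 5.78 to 19.4 CPM. The ranges were set by the prefrontal cortex values after these were seen, and were not tested. In the hippocampus the gap between them was narrow, from 4.66 to 5.47 CPM. Between regions, r was 0.743 to 0.859 within the lower and 0.524 to 0.774 within the upper range. The lower range held 8 of 15 males and 4 of 14 females. Its neighbour Ifit3b is a near-identical copy, so reads may be split between them.

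Ifit2, at chr19:34550694-34576419 and next to Ifit3, was lowest in animals 7, 11 and 23 in each region. In those animals it had 11.4 to 17.8 CPM in the prefrontal cortex, 11.3 to 17.8 CPM in the hippocampus and 14.2 to 17.8 CPM in the hypothalamus. All other animals had at least 23.4, 27.02 and 23.6 CPM. Among them r was 0.853 between prefrontal cortex and hippocampus, 0.528 between prefrontal cortex and hypothalamus and 0.480 between hippocampus and hypothalamus. Animals 7, 11 and 23 were set apart after the values were seen, and the split was not tested. The same 3 animals lay in the upper range of Ifit3, where animal 11 had the highest Ifit3 of all in the prefrontal cortex (13.1 CPM) and hypothalamus (19.4 CPM). Ifi44 had medians of 0.366, 0.709 and 0.559 CPM in the 3 regions, and its highest values were 3.33 and 3.35 CPM in animal 26 in the prefrontal cortex and hippocampus and 3.42 CPM in animal 28 in the hypothalamus.

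Mx1, a dynamin-like GTPase that blocks influenza virus and lies at chr16:97447035-97462907, showed one animal far above the others. Animal 2 had 14.5 CPM in the prefrontal cortex and 14.3 CPM in the hippocampus, where the medians were 0.856 and 0.900 CPM and no other animal passed 2.38 CPM. In the hypothalamus it had 2.92 CPM, with a median of 0.934 CPM.

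**Figure D4:**
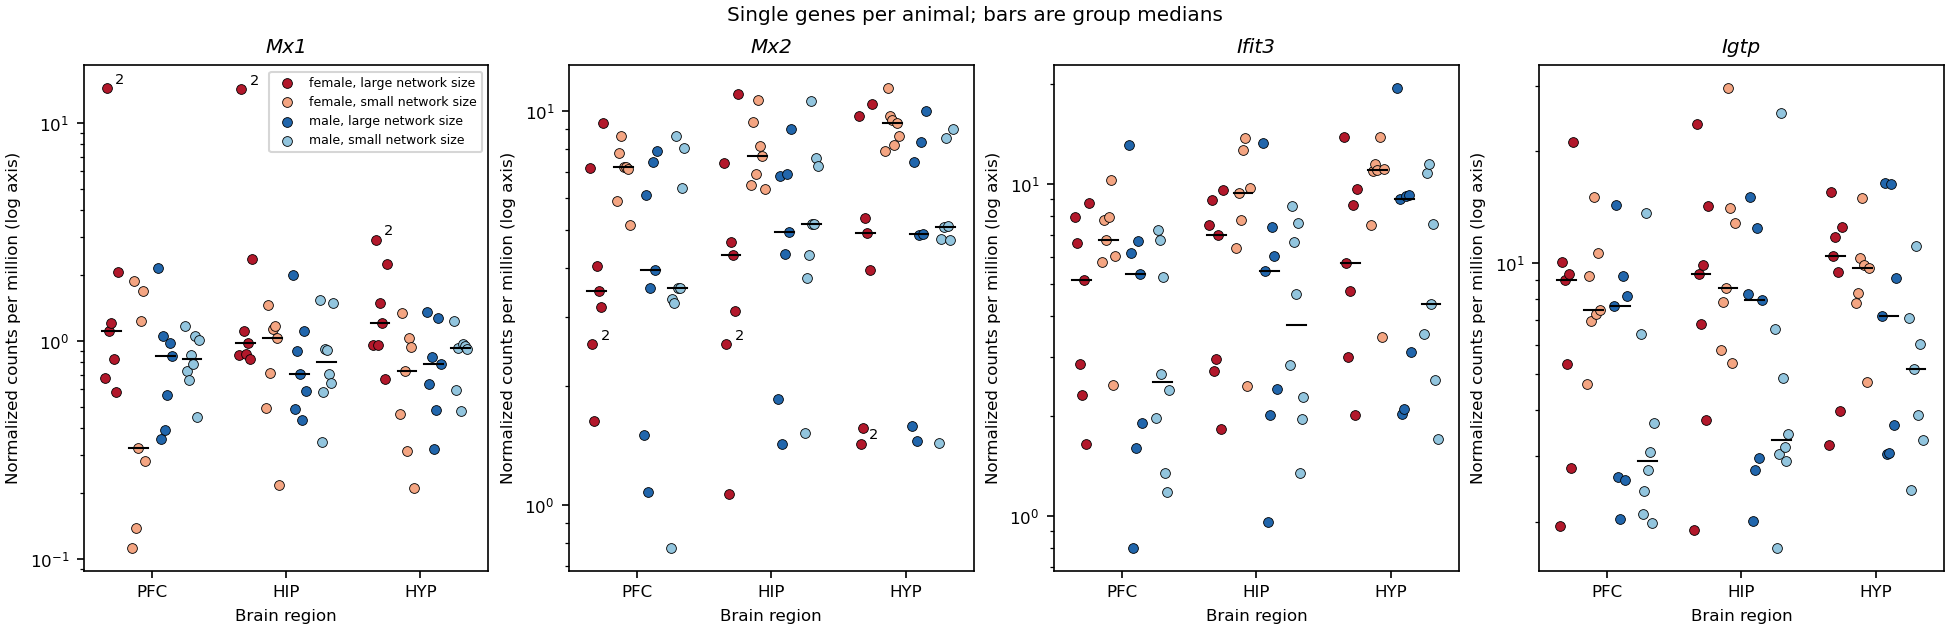
CPM (log axis) of Mx1, Mx2, Ifit3 and Igtp in each animal by region, coloured by sex and network size, with bars at the group medians and animal 2 numbered in the Mx1 and Mx2 panels. Mx1 shows animal 2 at 14.5 and 14.3 CPM, Mx2 falls into 3 ranges in the hypothalamus with all females with small network size in the upper one, and Igtp overlaps between all groups.

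The question of the study, whether animals with small and large network size differ, was asked within each sex and region. In the mean level the 4 groups overlapped throughout. Medians in prefrontal cortex, hippocampus and hypothalamus were 0.15, 0.01 and 0.24 in females with large and 0.14, 0.18 and 0.11 in females with small network size. In males they were 0.20, 0.16 and 0.09 with large and -0.31, -0.28 and -0.19 with small network size. The range of males with large network size, -0.61 to 0.55 in the prefrontal cortex, spanned most of that of males with small network size, -0.63 to 0.48.

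By edgeR's quasi-likelihood test no member of the list was called between small and large network size in either sex or any region. The share called of all genes was 0.0113%, 0% and 0.00552% in females in prefrontal cortex, hippocampus and hypothalamus, and 0% in males. The DESeq2 Wald test also called 0 of the 38 in each. No share of all genes is given here for this or the other DESeq2 counts below. Those counts are therefore no result about these genes in particular. The study, which used DESeq2, reported differentially expressed genes in females in each of the 3 regions. It reported very few in males, and gives the less extreme large network sizes of males as a possible reason. At an unadjusted p under 0.05, edgeR gave 4, 3 and 2 of the 38 in females, beside 9.59%, 12.2% and 7.39% of all genes, and none in males, beside 2.52%, 3.88% and 2.90%. In males 33, 28 and 30 of the 38 estimates were lower with small network size, with median log2 fold changes of -0.18, -0.13 and -0.16. In females 28, 28 and 17 were lower, with medians of -0.13, -0.13 and 0.03. Without animal 2, 19, 9 and 11 were lower in females, with medians of 0.01, 0.18 and 0.12. The hypothalamus median of females was also below 0 without animal 1, 8, 19 or 21. In males 24 to 36 stayed lower whichever animal was left out, and the hippocampus median was -0.05 without animal 7 and -0.25 without animal 12. Over all genes the median stayed within 0.01 of 0 in each comparison. Because the genes move together across animals, these counts are not 38 separate observations.

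Of the named genes, Ifit2 had the smallest p, in the hippocampus of females. Its values were 16.2, 35.4 and 41.9 CPM (lowest, median, highest) with small and 34.4, 47.0 and 67.4 CPM with large network size, and 3 of 7 animals with small network size lay below all with large. The log2 fold change was -0.52 ± 0.17 (SE), with a two-sided exact permutation p of 0.00408, edgeR's p of 0.00713 and its adjusted p of 0.274. Without animal 2 the log2 fold change was -0.42. In males the hippocampus values were 11.3, 35.6 and 50.9 CPM with small and 17.8, 41.9 and 45.1 CPM with large network size, with a log2 fold change of -0.12 (exact permutation p = 0.619).

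Ifi44 had a log2 fold change of -1.35 ± 0.55 (SE) in the prefrontal cortex of females (edgeR p = 0.0250, adjusted p = 0.496, exact permutation p = 0.067). Its values were 0.110, 0.354 and 1.33 CPM with small and 0.302, 1.01 and 3.33 CPM with large network size, so the groups overlapped. In the hippocampus its log2 fold change was -0.99 (exact permutation p = 0.0868, edgeR adjusted p = 0.398). Without animal 26 the estimates were -0.93 and -0.71, and without animal 8 that of the hippocampus was -1.48. Eif2ak2 in the prefrontal cortex of females had 6.02, 6.57 and 9.40 CPM with small and 6.33, 8.01 and 13.1 CPM with large network size. Its log2 fold change was -0.31 ± 0.14 (SE, exact permutation p = 0.0828, edgeR adjusted p = 0.511), and -0.18 without animal 2.

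The estimates of Mx1 in females turned on animal 2. They were -1.92, -1.77 and -1.04 on the log2 scale in prefrontal cortex, hippocampus and hypothalamus, with edgeR p of 0.0297, 0.0164 and 0.0160 and two-sided exact permutation p of 0.238, 0.2 and 0.0355. Without animal 2 the estimates were -0.44, -0.39 and -0.79. With animal 2 entered, the DESeq2 Wald test put that of the hippocampus at -0.37. It was run at its defaults, which can replace outlying counts, and whether the count of animal 2 was replaced was not checked. Mx2 went the other way in the hypothalamus of females, with 7.94, 9.34 and 11.4 CPM with small and 1.43, 4.91 and 10.4 CPM with large network size. Its log2 fold change was 0.79 ± 0.34 (SE, edgeR p = 0.0342, adjusted p = 0.656, exact permutation p = 0.0186). In males Mx2 had a log2 fold change of 0.01 there (exact permutation p = 0.99).

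**Figure D5:**
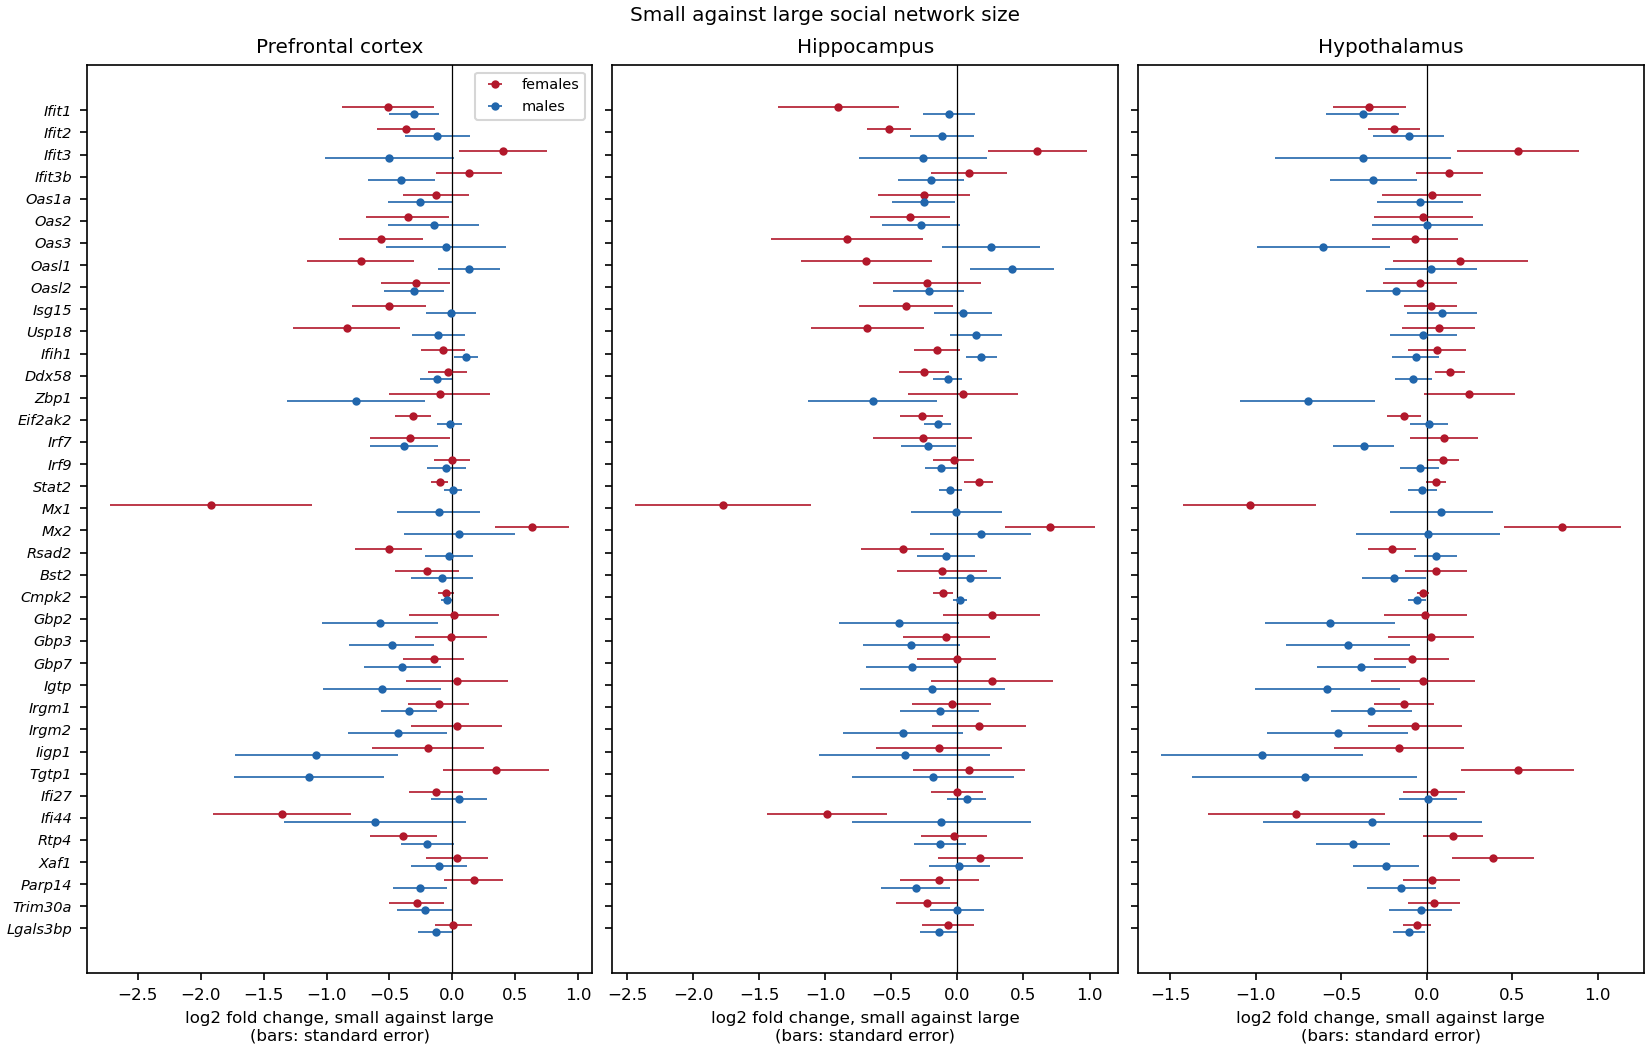
Log2 fold change of animals with small against those with large network size for each of the 38 genes (rows) in females and males, by region, with bars of 1 standard error from edgeR and x axes that differ between panels. No gene passed the adjusted threshold, the estimates of males lie mostly left of 0, and those of Mx1 in females lie farthest from it.

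With both sexes in one edgeR fit of the 4 groups of a region, 0 of the 38 were called for network size, beside 0.0163%, 0% and 0% of all genes. DESeq2 called none either, and 1, 2 and 1 of the 38 had an unadjusted edgeR p under 0.05, beside 8.48%, 9.78% and 3.52% of all genes. Of the 38 estimates 36, 31 and 27 were lower with small network size, against 49.3%, 47.3% and 48.8% of all genes. This count rested on animal 2 in the hippocampus, where 22 of the 38 were higher with small network size without it. The corresponding counts without it were 6 (prefrontal cortex) and 16 (hypothalamus). Such counts are again not 38 separate observations, because the genes move together across animals. The sex by network size term called 0 genes in edgeR and in DESeq2, beside 0% of all genes, with 0, 1 and 2 of the 38 at an unadjusted edgeR p under 0.05, beside 4.17%, 7.37% and 6.14% of all genes.

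Between the sexes most estimates were higher in females, and none was called. EdgeR called 0 of the 38, beside 0.0976%, 0.102% and 0.117% of all genes, and DESeq2 called 0. Estimates were higher in females for 34, 37 and 36 of the 38, against 49.4%, 49.2% and 47.4% of all genes, with medians of 0.22, 0.28 and 0.18 on the log2 scale. Without animal 2 the counts were 26, 33 and 33 and the medians 0.09, 0.13 and 0.15. Here too the genes move together across animals, so the counts are not 38 separate observations. At an unadjusted edgeR p under 0.05 there were 1, 3 and 6 of the 38, all higher in females, beside 4.98%, 5.99% and 6.79% of all genes.

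Between regions fewer of the genes were called than of all genes. In the edgeR fit with the sex-by-network-size groups, 11 of 38 were called between hypothalamus and prefrontal cortex (6 higher and 5 lower in the hypothalamus), beside 77.0% of all genes (39.8% higher and 37.1% lower). Between hippocampus and prefrontal cortex 7 were called (3 higher and 4 lower in the hippocampus), beside 65.7% (35.1% higher and 30.6% lower), and between hypothalamus and hippocampus 8 (5 higher and 3 lower in the hypothalamus), beside 70.8% (34.1% higher and 36.6% lower). That fit leaves out that the regions came from the same animals. With the animal as a block, which takes out the shared level of an animal, 17, 17 and 18 were called. All genes had 81.3%, 72.0% and 76.4% called with the block. The genes called with the block included all of those called without it. The region values below are from the fit without the block unless the block is named.

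Lgals3bp was the gene most raised in one region, with a log2 fold change of 1.07 ± 0.07 (SE) in the hypothalamus against the prefrontal cortex (edgeR adjusted p = 6.202e-24) and 0.78 ± 0.07 against the hippocampus (adjusted p = 1.631e-16). Its lowest, median and highest values were 26.7, 35.7 and 48.2 CPM there, against 10.4, 13.6 and 21.4 CPM in the prefrontal cortex, with no overlap. Ifit3b was also higher in the hypothalamus, by 0.39 and 0.33 against prefrontal cortex and hippocampus (edgeR adjusted p = 0.00789 and 0.0237). Ifih1 was highest in the prefrontal cortex, with log2 fold changes of -0.44 in the hypothalamus and -0.32 in the hippocampus against it (edgeR adjusted p = 2.062e-07 and 0.000111). Xaf1 was lower in the hypothalamus than in the prefrontal cortex by edgeR (-0.32, adjusted p = 0.0254). Its difference in the hippocampus against the prefrontal cortex passed only with the block. It was -0.25 with the block (edgeR adjusted p = 1.433e-06) and -0.22 without it (edgeR adjusted p = 0.127). Bst2 was higher in the hippocampus than in the prefrontal cortex (0.54 ± 0.13, edgeR adjusted p = 0.000237). Ifi27 was higher there than in the prefrontal cortex (0.25, edgeR adjusted p = 0.0260), with -0.34 in the hypothalamus against the hippocampus (adjusted p = 0.00213). Ranked by the smaller of the 2 fold changes against the other regions, Iigp1 and Ifi44 came first in the hippocampus, at 0.39 and 0.32 against the prefrontal cortex. They passed in edgeR only with the block, where the log2 fold changes were 0.33 and 0.39 (adjusted p = 0.00180 and 0.00126). Without the block the edgeR adjusted p were 0.241 and 0.386.

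The rest of the pathway was read from lists. The interferon genes themselves were near or at 0, as none of 16 passed the filter and the highest value in any library was 0.276 CPM, for Ifng in one hypothalamus. The edgeR F test between animals called 65.4% of all genes. Of the receptors it called 3 of 6, Ifnar1 (adjusted p = 0.000369), Ifngr1 (adjusted p = 0.0211) and Ifngr2 (adjusted p = 0.0436). Among the transducers 20 of the 21 tested were called, with Irf1 (F = 9.42, adjusted p = 5.649e-12) among them. Of the inhibitors 3 of 5 were called. For lists as short as the receptors and inhibitors, these counts are near the share of all genes and are no result about them. Of the other interferon-induced genes 56 of the 59 tested were called, with Gbp2b (F = 82.2) and Gbp4 (F = 79.8) among them. Both were named after the values were seen. No gene of these lists was called between small and large network size in either sex or any region by edgeR, which called at most 0.0113% of all genes. The unadjusted edgeR p under 0.05 numbered at most 8 in a list, for the other interferon-induced genes in the prefrontal cortex of females. Of all genes 9.59% had such a p there.

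Markers of immune cells moved with the level of the genes in part. All 8 microglial markers were detected, and their summed level ran from 200.5 to 298.7 CPM in the prefrontal cortex, 197.4 to 281.3 in the hippocampus and 201.7 to 293.1 in the hypothalamus. In the hippocampus animals 21 (281.3 CPM) and 2 (260.2 CPM) had the highest sums and animal 7 the lowest (197.4 CPM), while in the prefrontal cortex animal 2 had 227.4 CPM, the median. Its correlation with the mean level of the genes was 0.316, 0.728 and 0.454 in prefrontal cortex, hippocampus and hypothalamus, as a description. All 10 markers of T and NK cells were detected, with sums of 2.56 to 8.94, 3.77 to 10.6 and 6.98 to 15.7 CPM. Their correlation with the mean level was 0.575, 0.699 and 0.367. Animal 12 was the highest in the hippocampus and animals 2 and 21 followed, with 8.60 and 8.04 CPM. All 8 markers of B and plasma cells were detected, with sums of 8.98 to 73.1, 18.97 to 94.1 and 17.8 to 93.3 CPM and correlations of 0.403, 0.467 and 0.284. Those of perivascular and infiltrating myeloid, endothelial and erythroid cells had correlations of at most 0.259 in any region. Choroid plexus markers were highest in the hippocampus of animals 2 (1526 CPM) and 21 (1236 CPM), where the median was 799.7 CPM. They also reached 414.5 CPM in the prefrontal cortex of animal 20 (median 5.44 CPM) and 353.8 CPM in the hypothalamus of animal 28 (median 55.9 CPM). In the hippocampus animal 28 had 436.9 CPM, below the median. The choroid plexus sums had correlations with the mean level of 0.129, 0.221 and 0.175 in prefrontal cortex, hippocampus and hypothalamus. The part of these cells in the level of the genes was not tested.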

How the data were processed

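Per the labels, total RNA of micropunches from 3 brain regions of wild mice was sequenced in 86 libraries of 29 animals. Per the study's methods, the authors mapped paired-end reads to GRCm38 with STAR and counted the reads of each gene with HTSeq, and the deposited values are these raw counts for 35275 genes. The submitters' processing notes also name CASAVA 1.8.2 and DESeq2. The annotation release and the strand setting of the counting are not given in the sources used here, so reads of overlapping genes (Igtp and Irgm2, Irf9 and Rnf31, Tgtp1 and Olfr56, Irf7 and Phrf1, Rtp4 and Masp1) and of near-identical copies may be shared. Every column of values was matched to a sample by its title.

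Symbols, positions and exon lengths came from GENCODE vM21 (34490 genes matched). In edgeR 4.0.16 (R 4.3.3) counts were normalized by TMM, filtered by filterByExpr (minimum count 10, total 15, proportion 0.7) and tested by quasi-likelihood, with Benjamini-Hochberg adjustment over all genes at 0.05. CPM are TMM-normalized, log2 CPM used a prior count of 2, and TPM were derived from the counts and exon lengths. Small was compared with large network size within sex and region without covariates. Animals were compared in a model with region and animal, and regions in one with sex-by-network-size group. Exact tests were two-sided permutation tests of mean CPM, which for 7 against 7 animals cannot give a p below 0.000583. Regions were paired by the animal number in the labels. Libraries were matched by the correlation over genes of deviations from the mean of the region, in which differences between the sexes and groups remain. The nearest library in the other region carried the same number for 29 of 29 (prefrontal cortex and hippocampus), 27 of 28 (prefrontal cortex and hypothalamus) and 28 of 28 (hippocampus and hypothalamus) libraries. Nothing in the labels gives batches.

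The members, the pathway and marker lists and the tests were chosen with earlier results of these data known. Genes named were the most abundant of each role, the 6 with the smallest and 3 with the largest p between animals, up to 3 with the smallest unadjusted p under 0.05 per comparison of network size, and the 2 with the largest fold in each region against both others. Other genes were named after their values were seen. Alternatives were the size factors and the tests of DESeq2 1.42.0, no filter on low counts, all 4 groups in one fit, the animal as a block, each animal left out, each region left out, and other scalings of the mean level. The tests were checked on simulated data. Plots were drawn with matplotlib 3.10.9.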

Additional observations from a re-analysis of the deposited data

Results flagged for a closer look

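A gap test for single high or low values was run on the mean level and on Mx1 within each group of animals in each region, and 5 of 24 groups held an animal beyond it. Chance flags about 1 in 20 separate groups, but the 24 are the same 4 groups of animals read in 3 regions for 2 measures, and Mx1 was chosen with its values known, so the 5 are not set against that rate. In females with large network size, animal 2 had 14.46 CPM of Mx1 in the prefrontal cortex, with the next animal at 2.076, and 14.28 CPM in the hippocampus, with the next at 2.377. In males with large network size, animal 11 had 2.167 CPM of Mx1 in the prefrontal cortex, with the next at 1.054, and 2.015 CPM in the hippocampus, with the next at 1.112. In males with small network size, animal 12 had a mean level over the genes of 0.763 in the hippocampus, with the next at -0.05.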

How the results depend on the processing

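Of the counts of genes called and the correlations between regions, those that moved by more than 1.5 times were the counts called between regions with the animal number as a replicate block, which were 17 for hypothalamus against prefrontal cortex, 17 for hippocampus against prefrontal cortex and 18 for hypothalamus against hippocampus, against 11, 7 and 8 without the block. The other 199 such values, each a count or correlation under one alternative, stayed within 1.5 times or within the spread. A kept count does not cover each gene: Ifih1 and Cmpk2 lost their call between animals without animal 2, and Xaf1, Iigp1 and Ifi44 passed between regions only with the block in the contrasts given for them. A further 144 values were log2 fold changes between network sizes of the genes named in females, each under one alternative. They kept their sign and none passed the adjusted threshold. Some sizes moved by more than 1.5 times. They were those of Mx1 and Eif2ak2 without animal 2 and that of Ifi44 in the hippocampus without animal 8. Another was that of Mx1 in the hippocampus by DESeq2, at defaults that can replace outlying counts. Estimates of the same genes in males could change sign. With 1 animal left out, that of Ifit2 in the male hippocampus ran from -0.24 to 0.01. That of Mx2 in the male hypothalamus ran from -0.16 to 0.22. The numbers of genes higher or lower with small network size in females and in both sexes, and the medians between the sexes, also turned on animal 2, as given with them. Leaving out each animal in turn gave 0 genes called between small and large network size in every case. At an unadjusted p under 0.05 these fits gave 1 to 7 genes in females in the prefrontal cortex, 1 to 5 in the hippocampus and 1 to 3 in the hypothalamus, and 0 to 6, 0 to 9 and 0 to 3 in males, the highest of the prefrontal cortex and hippocampus without animal 12. The fits without animal 2 over all 4 groups or all regions, and the ranges, pairs and correlations without it, were added after seeing the data.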
